A study of Mus musculus with 6 samples.

Results

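Keratin genes were examined as a reading of the epithelium in open chromatin of the embryonic mouse face. The members were the 53 protein-coding genes with a keratin symbol, out of 21827 protein-coding genes, with the keratin-associated protein genes left out. They were grouped as 4 simple keratins (Krt7, Krt8, Krt18 and Krt19), 3 basal keratins (Krt5, Krt14 and Krt15) and 46 other keratins. Peaks of all libraries that overlapped by 1 bp were merged into 382006 regions, and 157 of them had their strongest summit nearest to a keratin start site and within 50 kb of it. These keratin regions belonged to 42 genes, and 11 keratins had none.

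Chromatin accessibility was measured by bulk ATAC-seq, in which Tn5 transposase inserts adapters into open DNA, in dissected face tissue of wild-type (WT) embryos at stage e11.5. There were 6 libraries, 2 each labelled nose, maxillary process and mandibular process, with no treatment in any of them and the cell type given as mixed. The files of the 4 jaw libraries are named with the abbreviation of the other jaw process, so groups follow the sample labels and a difference between the jaws would change sign if the file names were right. Nose against both jaws does not depend on this. Nothing states that replicate libraries were made from separate embryos, and p-values therefore measure the spread between these libraries, which may be technical.

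Keratins form the intermediate filaments of epithelial cells, and a filament needs a type I partner (the acidic keratins, such as Krt14 and Krt18) and a type II partner (such as Krt5 and Krt8). Krt8 and Krt18 are the pair of simple, single-layered epithelia, Krt5 and Krt14 the pair of the dividing basal layer of stratified epithelia, and most other keratins belong to suprabasal layers, hair, nail or tongue. At this stage the face is mainly neural crest-derived mesenchyme covered by a thin ectoderm. In bulk tissue, fewer epithelial cells and less accessibility per epithelial cell cannot be told apart.

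The lists held 219779 to 299731 peak lines, and 139404 to 185670 regions were called in a library, the fewest in the first library labelled maxillary process. The number of reads behind the lists is unknown. Calls were made per library, from any peak of its list inside the region, and the fold is the height of the summit over its local background in that library. Of 16 epithelial marker genes, 12 had a promoter called in all 6 libraries, and Ovol1, Cldn4, Cldn6 and Cldn7 did not. All 10 mesenchymal markers had one, as did 6 of 8 neuronal, 3 of 6 endothelial, 4 of 4 muscle and 0 of 6 blood markers. Over all protein-coding genes this share was 65.8%.

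Few keratin promoters were open in this tissue. A promoter was counted as called where a region lay within 1 kb of an annotated start site, and this held in all 6 libraries for 6 of 53 keratins (11.3%), against 65.8% of all protein-coding genes. The 6 were Krt8 and Krt18 among the simple keratins and Krt10, Krt75, Krt80 and Krt87 among the others. Krt10 is the type I keratin of suprabasal epidermis and Krt75 a keratin of the hair follicle. None of the 3 basal keratins was among them. In no library was the promoter called for 35 of 53 keratins (66.0%), against 26.5% of all genes, and all 35 were among the 46 other keratins. The remaining 12 were called in 1 to 5 libraries. Each library called between 11 and 14 keratin promoters.

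**Figure D1:**
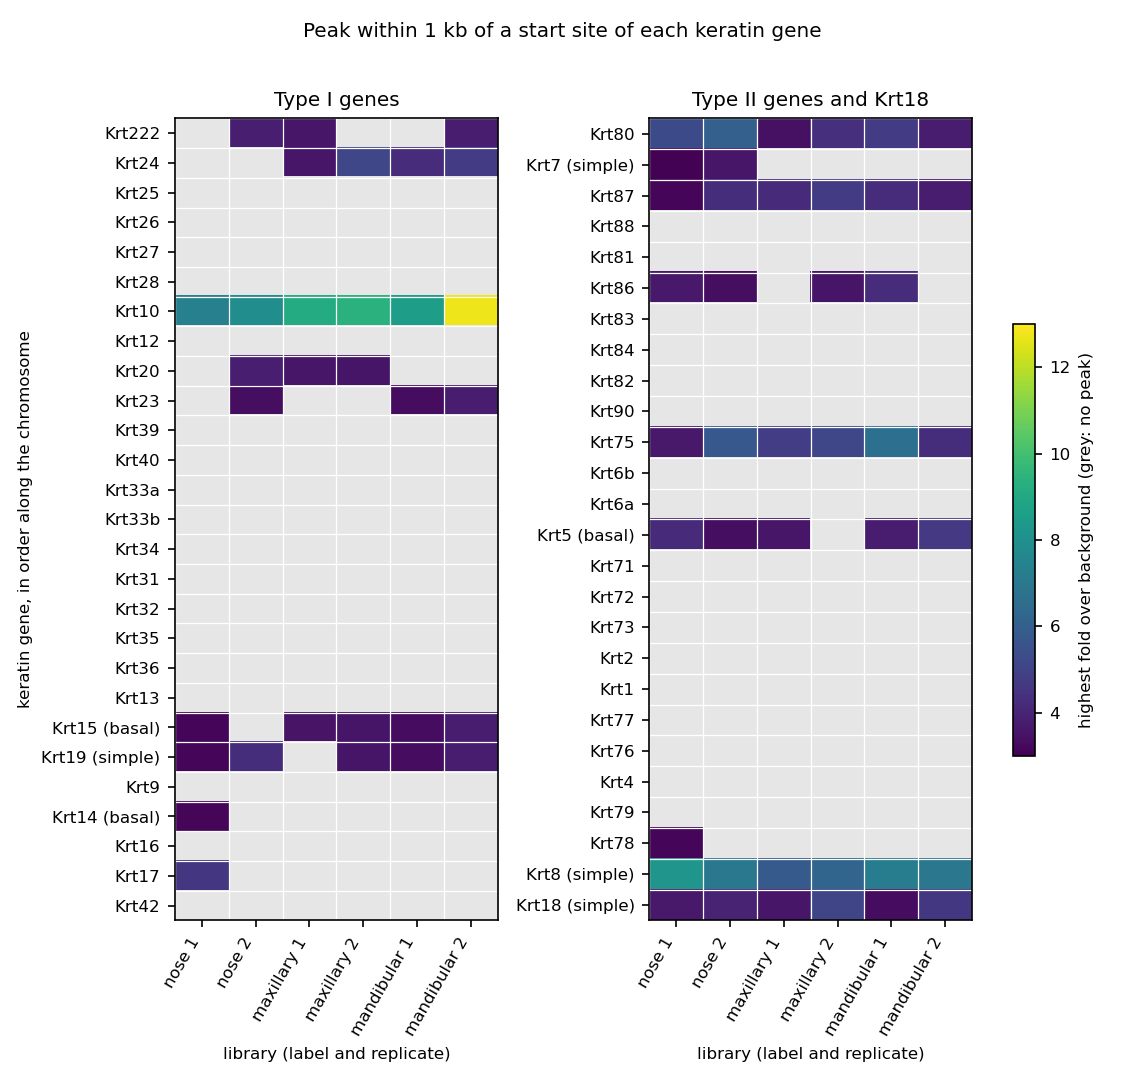
Highest fold over background of a peak within 1 kb of a start site, for the 53 keratins (rows, in chromosome order) in the 6 libraries (columns), grey where no peak was called. The rows of Krt8, Krt10, Krt18, Krt75, Krt80 and Krt87 are filled in all 6 libraries, and 35 rows are grey throughout.

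The start sites of 3 of these 6 genes need care. The Krt10 region (chr11:99385881-99386751, coordinates on GRCm38 throughout) lies in a coding exon, 28 bp from an internal alternative start and 3.30 kb from the outermost one. The Krt80 region lies in an intron, 4.61 kb inside the outermost start. The Krt8 region (chr15:102002811-102003494) lies in the first part of the gene, its edge within 1 kb of the start but its summit 1.12 kb past it, in an intron. With the outermost start of each gene alone, a choice made after seeing these positions, 4 keratins were called in all 6 libraries (Krt8, Krt18, Krt75 and Krt87; 7.55%, against 63.7% of all genes) and 36 in none.

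The keratin promoters that were called were shallow. The median fold over the 6 libraries was 8.845 for Krt10, 6.98 for Krt8, 4.98 for Krt75, 4.55 for Krt80, 4.25 for Krt87 and 3.83 for Krt18. Over the 14361 genes with a promoter called in all 6 libraries the median was 10.7, and over the 12 epithelial markers among them it was 5.86. Krt18 stood at percentile 0.522 of those genes and Krt8 at percentile 15.04.

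To show how keratin start sites differ in sequence, the 120 bases before the RefSeq start (GRCm38.p6) are printed for 4 genes, 5′ to 3′ on the coding strand, with CG dinucleotides and TATAAA in capitals. Krt18, of the simple class, was called in all 6 libraries; Krt5, of the basal class, in 5; Krt10 had no call over this stretch, and the hair keratin Krt31 had no promoter call. They lie at chr15:102028096-102028215 on the plus strand for Krt18, and on the minus strand at chr15:101712906-101713025 for Krt5, chr11:99389365-99389484 for Krt10 and chr11:100050552-100050671 for Krt31.
Krt18: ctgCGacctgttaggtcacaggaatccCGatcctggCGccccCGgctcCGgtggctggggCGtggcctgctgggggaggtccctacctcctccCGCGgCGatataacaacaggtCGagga
Krt5: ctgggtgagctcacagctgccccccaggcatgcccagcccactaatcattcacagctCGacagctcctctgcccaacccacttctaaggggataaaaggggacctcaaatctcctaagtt
Krt10: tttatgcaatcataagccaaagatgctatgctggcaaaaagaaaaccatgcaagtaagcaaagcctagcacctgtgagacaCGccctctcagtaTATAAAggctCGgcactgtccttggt
Krt31: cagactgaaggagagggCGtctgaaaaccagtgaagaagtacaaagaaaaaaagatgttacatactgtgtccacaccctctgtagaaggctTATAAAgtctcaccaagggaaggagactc
Krt18 held 10 CG dinucleotides in this stretch, Krt10 held 2, and Krt5 and Krt31 held 1 each. TATAAA was matched in Krt10 and Krt31.

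RefSeq promoters, from 250 bases before the start to 50 after it, were matched for 36 of 53 keratin symbols, with 37 entries. TATAAA lay on the coding strand within 50 bases before the start in 15 of the 37 (40.5%), against 3.06% of 20143 promoters of protein-coding genes. The median keratin promoter had a GC content of 48.7% and 5 CG dinucleotides, against 57.0% and 14 over protein-coding genes. The Sp/KLF box GGGCGG, on either strand, was matched in 2 of 37 (5.41%), against 47.7%. Of the 26 entries of keratins called in no library, 13 held TATAAA.

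Among the simple keratins, Krt8 had the strongest region of the family. This region (chr15:101983962-101984758) lay 20.1 kb past the Krt8 start, in intergenic sequence beyond the 3′ end of the gene. Its fold was 12.3 and 13.05 in the libraries labelled nose, 10.99 and 11.8 in those labelled maxillary process, and 12.0 and 13.5 in those labelled mandibular process. All 6 values lay close together, and the region ranked in the top 2.67% of its best list. It is shown around its summit (chr15:101984352-101984502, plus strand), with the matches to the Sp/KLF box (GGGCGG, here on the minus strand) and to the p53-family half-site in capitals.
Krt8: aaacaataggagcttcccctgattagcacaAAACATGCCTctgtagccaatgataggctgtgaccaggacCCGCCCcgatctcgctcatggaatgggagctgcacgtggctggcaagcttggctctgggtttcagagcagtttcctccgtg

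Krt8 had 9 regions, 3 of them called in all 6 libraries. The intronic region nearest the start had a fold of 8.20 and 7.02 in the libraries labelled nose, 5.82 and 6.26 in maxillary process, and 7.23 and 6.95 in mandibular process. The third lay 16.1 kb past the start (chr15:101988222-101988623), with folds of 5.25 and 4.41 in nose, 3.30 and 5.50 in maxillary process, and 7.10 and 6.27 in mandibular process. Both libraries labelled mandibular process lay above the other 4 there. The other 6 Krt8 regions were called in 1 or 2 libraries.

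Krt18, the type I partner of Krt8 and the only type I keratin gene in the type II cluster, had a region across its start (chr15:102027981-102028557, summit in the UTR). Its fold was 3.68 and 3.99 in nose, 3.59 and 5.07 in maxillary process, and 3.33 and 4.61 in mandibular process. The groups overlapped. A second Krt18 region called in all 6 libraries lay 2.85 kb before the start (chr15:102025206-102025878), with folds of 4.20 and 4.84 in nose, 5.34 and 5.14 in maxillary process, and 3.80 and 3.70 in mandibular process.

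Krt19, the type I keratin that lacks a tail domain, had 9 regions, 1 of them in all 6 libraries. This region (chr11:100169074-100169285) lay 23.0 kb before the start, with folds between 3.36 and 5.255. The region at the start itself was called in 4 libraries, and with a second one 278 bp before the start, called in the other mandibular library, the promoter counted as called in 5. Krt7, the type II keratin of ducts and glands, had 7 regions. Its promoter was called in both libraries labelled nose, at highest folds of 3.06 and 3.605 there, and in no jaw library. The region called in both, 67 bp before the start, had −log10 q of 1.39 and 1.57. The second maxillary list starts at 2.55 and the first mandibular list at 1.62, so neither could hold such a peak. A Krt7 region 1399 bp before the start (chr15:101410824-101411098, within an intron of the antisense gene Gm671) was called in all 6 libraries, with folds of 5.48 and 4.03 in nose, 6.60 and 5.24 in maxillary process, and 4.75 and 3.68 in mandibular process.

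The basal keratins were called in a scattered way. Krt5 had 10 regions, none called in all 6 libraries and 6 called in 1 library. Its promoter counted as called in 5 libraries, but through 3 separate regions around the start and 1 at 1016 bp before it, each called in 1 to 3 libraries, with folds from 3.36 to 4.64. Krt15, a basal keratin also known from hair follicle stem cells, had 5 regions in 1 to 3 libraries each, with folds of 3.15 to 3.81. Krt14, the type I partner of Krt5, had 4 regions.

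A Krt14 intron held the only basal region called in all 6 libraries (chr11:100203506-100203783, 3.89 kb past the start). Its fold was 8.93 and 6.23 in nose, 4.83 and 6.71 in maxillary process, and 3.80 and 6.55 in mandibular process. The first library labelled nose was the highest, and the second lay within the range of the jaws. Within 1 kb of the annotated Krt14 start only the first library labelled nose had a call. The RefSeq start of Krt14 lies further in, and a region there, 1502 bp past the annotated start (chr11:100205812-100206106), was called in 3 of the 4 jaw libraries, at folds of 3.55 in maxillary process and 6.06 and 3.27 in mandibular process.

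Per gene, the simple keratins had a median of 8 regions, the basal keratins 5 and the other keratins 2, against 5 over all protein-coding genes. Keratin genes stand close together, so the sequence nearer to their start than to any other is short, with a median of 23.5 kb against 47.45 kb over all genes. Per 100 kb of such sequence, there were 22.3 regions at simple, 29.45 at basal and 10.4 at other keratins, against 15.7 over all genes. The simple class had 7 of its 30 regions called in all 6 libraries, the basal class 1 of 19 and the other keratins 24 of 108. Over the 157 keratin regions this came to 20.4%, against 18.3% of all regions. Keratin regions lie within 50 kb of a start by definition. Of all regions that near, 43712 of 183436 were called in all 6 libraries, a higher share than at keratins. In 1 library alone, 47.1% of keratin regions were called, against 44.4% of all regions, and 11 of the 19 basal regions were of this kind.

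**Figure D2:**
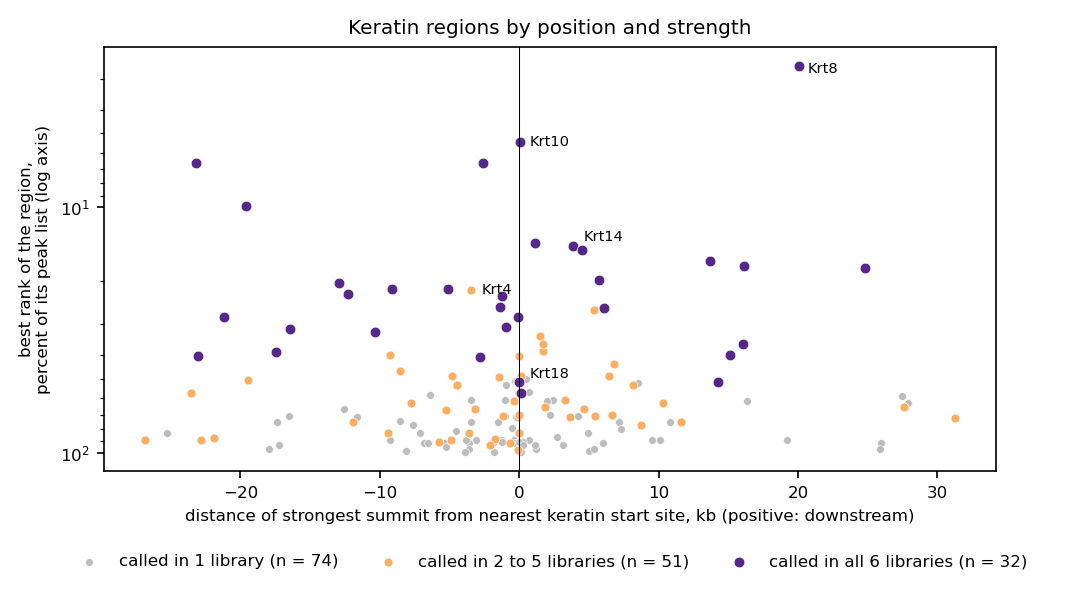
Each of the 157 keratin regions by the distance of its strongest summit from the nearest keratin start (x axis, kb) and its best rank among the peaks of a library (y axis, percent of the list, log axis with the strongest at the top), coloured by the number of libraries calling it. The Krt8 region at 20.1 kb stands at the top, and no grey point, called in 1 library, ranks better than 49.95% of its list.

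The strongest keratin regions were few and most lay away from start sites. Only 5 of 157 keratin regions (3.19%) reached the top 10% of a list, against 7.16% of all regions and 10.55% of those within 50 kb of a start. They were the region of Krt8 at 20.1 kb, the Krt10 exon region, a Krt82 region 2.63 kb before the start, in a coding exon of Krt90, and a pair of intergenic Krt78 regions 23.2 and 19.6 kb before the start. The Krt10 region had folds of 7.36 and 7.90 in nose, 9.13 and 9.37 in maxillary process, and 8.56 and 12.7 in mandibular process, so that both libraries labelled nose lay below all 4 jaw libraries. The Krt82 region had folds of 8.26 and 11.6 in nose, 7.245 and 10.7 in maxillary process, and 8.11 and 11.9 in mandibular process. In each label its second library was the higher.

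Of the 157 regions, 79 were intergenic, 51 lay in introns, 16 in coding exons and 11 in UTRs. Of the 32 called in all 6 libraries, 8 lay in coding exons (25.0%), against 3.80% of all regions called in all 6 libraries within 50 kb of a start. They belonged by nearest start to Krt10, Krt87, Krt88, Krt86, Krt82, Krt4 and, with 2 regions, Krt1, the type II partner of Krt10. Keratin exons are alike between neighbouring genes, and reads of near-identical copies (Krt6a and Krt6b, Krt33a and Krt33b, Krt81, Krt83 and Krt86) may be split or dropped in mapping, so the calls of those genes are uncertain.

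The spans of the clusters differed in the density of called regions. The type II cluster, with Krt18 at its end (chr15:101347444-102032027), had 26 keratins among 29 protein-coding genes and 93 regions of any nearest gene, 136 per Mb, of which 23 were called in all 6 libraries (33.6 per Mb). The type I cluster (chr11:99232761-100269871) had 27 keratins among 68 protein-coding genes and 64 such regions, 61.7 per Mb, of which 7 were called in all 6 libraries (6.75 per Mb). The type I span includes a long stretch without keratin genes, between the end of Krt40 (chr11:99543158) and Krt33a (chr11:100011195). Its density is therefore not that of the keratin genes alone, and the density without this stretch was not computed. The genome as a whole had 140 regions per Mb and 25.7 per Mb called in all 6 libraries. Krt80, at the edge of the type II cluster, had the most regions of any keratin, 18, of which 11 were called in 1 library. Krt1 had 8 regions, 2 of them called in all 6 libraries. No region was assigned to the corneal keratin Krt12, the mucosal keratin Krt13, the inner root sheath keratins Krt26 and Krt27, the hair keratins Krt33b, Krt34, Krt35 and Krt39, or the Krt6a and Krt6b of wounds and appendages. Krt73 was the other one with none.

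As a share of the whole library, keratin regions made up a similar part of each list. Called keratin regions numbered 63 and 71 in nose, 55 and 65 in maxillary process, and 78 and 70 in mandibular process. Per 10000 called regions this was 3.62 and 3.82 in nose, 3.95 and 3.78 in maxillary process, and 4.25 and 4.00 in mandibular process. The means were 3.72 ± 0.143 in nose, 3.86 ± 0.116 in maxillary process and 4.12 ± 0.177 in mandibular process (SD, n = 2 each). The exact binomial 95% interval of each library, which covers counting error only, spanned all of these means; for the first library labelled nose it ran from 2.78 to 4.63. The direction turned with the peak threshold. Nose minus both jaws was -0.271 with every deposited peak and 0.472 with peaks of −log10 q of at least 3 alone. Without the first library labelled nose it was -0.136, and without the first labelled mandibular process -0.149.

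**Figure D3:**
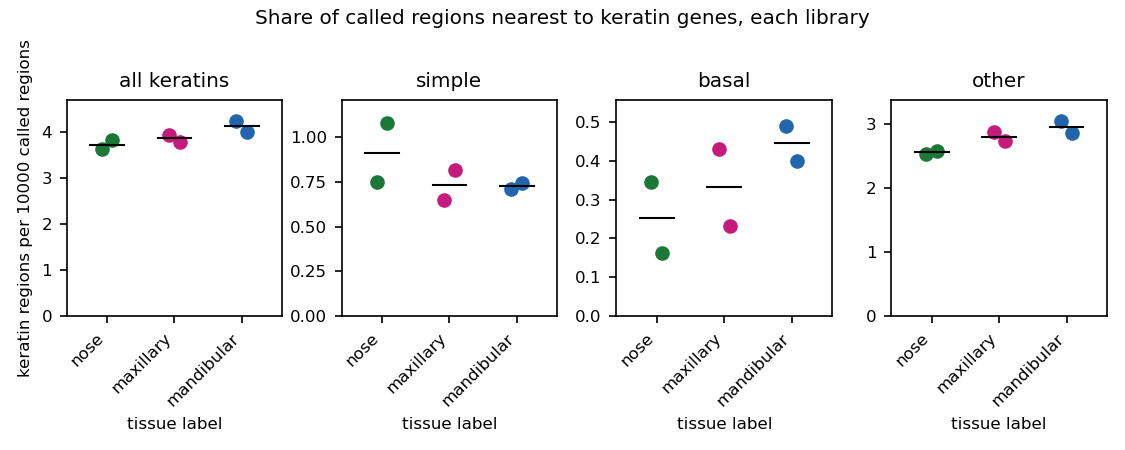
Keratin regions per 10000 called regions (y axes, each from 0) in the 2 libraries of each tissue label (points) with their mean (line), for all keratins and for the simple, basal and other classes. The points of all keratins lie between 3.62 and 4.25. In the simple panel nose lies above mandibular process, narrowly for its lower point, and in the basal panel mandibular process lies above nose.

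By class, the simple keratins had 0.747 and 1.077 regions per 10000 in nose, 0.646 and 0.815 in maxillary process, and 0.708 and 0.743 in mandibular process. Both libraries labelled nose lay above both labelled mandibular process, the lower one narrowly, and those labelled maxillary process overlapped both. The basal keratins had 0.345 and 0.162 in nose, 0.430 and 0.233 in maxillary process, and 0.490 and 0.3998 in mandibular process, from 3 to 9 regions per library. Here the libraries labelled mandibular process lay above those labelled nose, and those labelled maxillary process overlapped both. The other keratins had 2.53 and 2.585 in nose, 2.87 and 2.73 in maxillary process, and 3.05 and 2.86 in mandibular process, with both libraries labelled nose below all 4 of the jaws. These class shares used every deposited peak, and weak peaks were kept unevenly between lists. They were not recomputed at higher thresholds or with lists of equal length, where the total for nose minus both jaws reversed. Regions of the 16 epithelial markers came to 4.94 and 6.25 per 10000 in nose, 5.88 and 5.93 in maxillary process, and 6.70 and 5.88 in mandibular process. Their part in the keratin values was not tested.

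Regions called in the libraries of 1 label alone were found near keratins at shares equal to or below those of all regions. Both libraries labelled nose and no other called 5 of 157 keratin regions (3.18%), against 3.18% of all regions. Both labelled maxillary process alone called 3 (1.91%), against 1.91%, and both labelled mandibular process alone called 3 (1.91%), against 2.82%. With 1 library of its own label left out, a call in the remaining 1 was enough, which is a looser criterion. Without the first or the second library, the count was then 19 or 17 for nose, 12 or 12 for maxillary process, and 14 or 24 for mandibular process. The share over all regions was not counted for this criterion. The mandibular count was 6 without the second library labelled nose and 5 without the second labelled maxillary process.

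The 5 nose regions lay near Krt7, Krt40, Krt75, Krt78 and Krt84, of which Krt40 and Krt84 are hair keratins. The strongest was in a Krt75 intron (chr15:101571919-101572276, 1.68 kb past the start), with folds of 5.58 and 3.78 in nose and no peak in the jaws. The Krt84 region (chr15:101540885-101541917), 8.57 kb before its start and in the UTR of Krt82, had folds of 4.66 and 4.16 in nose. The maxillary regions lay near Krt19, Krt80 and Krt84. That of Krt19, 19.4 kb before the start (chr11:100165127-100165678), had folds of 4.12 and 5.11. The mandibular regions lay near Krt5, Krt25, a keratin of the inner root sheath, and Krt42. That of Krt5, 4.45 kb before the start (chr15:101717206-101717534), had folds of 4.72 and 3.81 in mandibular process. Of the members of these sets, those of Krt7, Krt25, Krt42, Krt78 and the Krt84 maxillary one had no fold above 3.80. The nose regions of Krt7 and Krt78 had −log10 q of at most 1.73. The second maxillary list, which starts at 2.55, could not hold such peaks.

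Between the jaws, 4 keratin regions were called in both maxillary libraries and no mandibular one, near Krt19, Krt20, Krt80 and Krt84 (2.55%, against 3.52% of all regions). In both mandibular libraries and no maxillary one there were 7 (4.46%, against 5.40%). Of these, 3 lay near Krt5 and the others near Krt7, Krt23, Krt25 and Krt42.

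Among keratin regions called in all 4 jaw libraries and neither library labelled nose there were 2 (1.27%, against 0.957% of all regions), near Krt4 and Krt24. Both genes are singled out after their values were seen. Krt4 is the type II keratin of the oral and oesophageal lining. Its region (chr15:101927843-101928340) was intergenic, 3.45 kb before the Krt4 start and between Krt4 and Krt79. It had folds of 7.15 and 6.64 in maxillary process and 6.93 and 6.45 in mandibular process, with −log10 q between 8.51 and 11.1, and no peak in nose. The stretch around its summit (chr15:101928113-101928263, plus strand) is printed with the match to the Grainyhead-like motif AACNGGTT, here on the minus strand, in capitals.
Krt4: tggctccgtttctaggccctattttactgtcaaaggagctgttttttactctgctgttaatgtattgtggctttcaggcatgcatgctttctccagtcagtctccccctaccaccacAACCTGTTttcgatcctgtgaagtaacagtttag

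The Krt4 region was called in the jaws alone also with peaks of −log10 q of at least 3 or 5, with lists of equal length, with a stricter cover of the region, and with each library left out. These settings remove peaks, calls or libraries, so none of them could add a call in nose. With jaw −log10 q of at least 8.51, the thresholds of 3 and 5 could not remove the jaw calls either. A second Krt4 region, 5.13 kb before the start and in a coding exon of Krt79 (chr15:101929609-101930004), was called in all 6 libraries. Its fold was 7.36 and 3.84 in nose, 3.37 and 3.95 in maxillary process, and 5.13 and 3.26 in mandibular process. The Krt4 promoter itself was called in no library. The Krt24 region lay in a coding exon 0.13 kb past the start (chr11:99284924-99285241), with folds of 3.62 and 5.13 in maxillary process and 4.28 and 4.77 in mandibular process. With peaks of −log10 q of at least 3, the jaw set held 1 region, and without the first library labelled maxillary process it held 4.

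**Figure D4:**
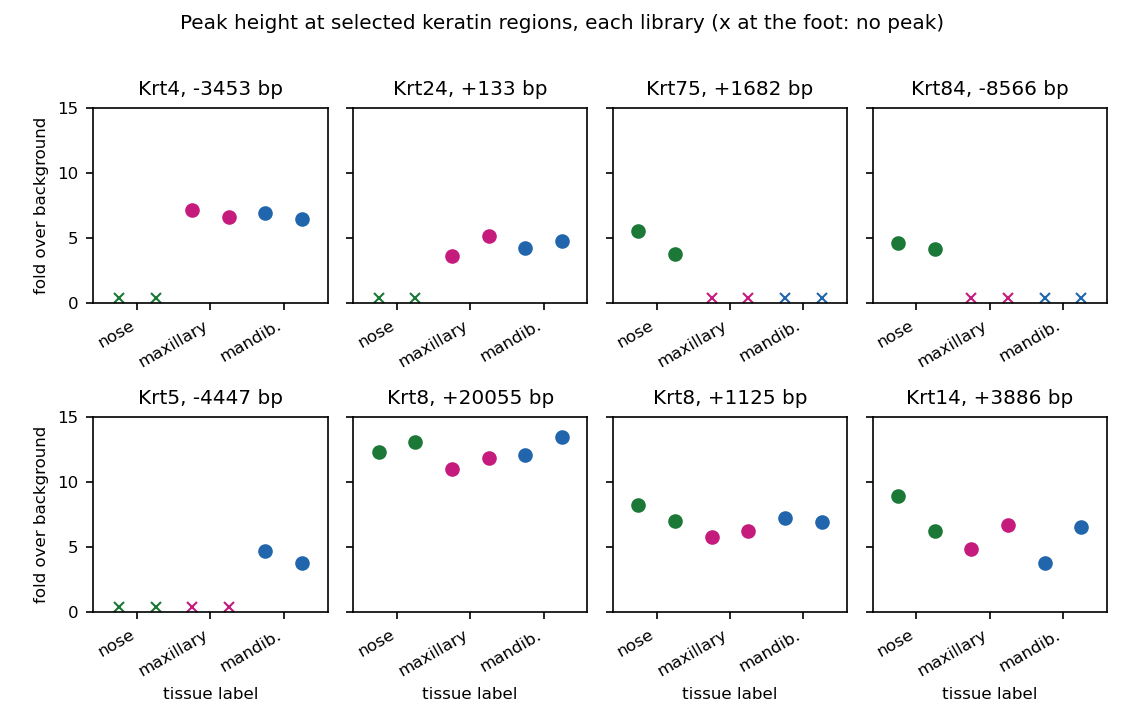
Fold over background (y axes) in each of the 2 libraries of a label (points) at 8 keratin regions, named by nearest gene and distance from its start, with a cross where no peak was called. The regions of Krt4 and Krt24 have points in the 4 jaw libraries alone, those of Krt75 and Krt84 in nose alone and that of Krt5 in mandibular process alone, whereas those of Krt8 and Krt14 have 6 points.

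Where a peak was called in all 6 libraries, heights were compared with limma on log2 folds, quantile normalised, over 69940 regions with Benjamini-Hochberg adjustment. No keratin region passed an adjusted p of 0.05 in any of the 4 contrasts, out of 32 tested. Over all regions, nose minus both jaws called 0.967% higher and 1.18% lower, maxillary minus mandibular process 0.526% and 0.455%, maxillary process minus nose 0.809% and 0.566%, and mandibular process minus nose 1.37% and 1.11%. At an unadjusted p under 0.05 there were 2 keratin regions for nose minus both jaws, 5 for maxillary minus mandibular process, 4 for maxillary process minus nose and 4 for mandibular process minus nose, of 32 each. Over all 69940 regions the shares under it were 15.7%, 14.2%, 14.4% and 16.1% in the same order, so the keratin counts were near or below them. The median keratin difference on the log2 scale was 0.12 for nose minus both jaws, against 0.01 over all regions, and -0.14 for maxillary minus mandibular process, against 0.00. It was 0.07 for nose minus both jaws without the second library labelled nose and 0.18 without the second labelled maxillary process. For maxillary minus mandibular process it was -0.04 without the first library labelled maxillary process and -0.08 without either labelled mandibular process.

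For nose minus both jaws, the smallest adjusted p in limma was that of the Krt80 region 976 bp before the internal start. It had folds of 5.255 and 6.08 in nose, 3.45 and 4.34 in maxillary process, and 4.28 and 3.81 in mandibular process, so that both libraries labelled nose lay above all of the jaws. The log2 difference was 0.57 (SE 0.169, limma adjusted p = 0.103), and the alternatives gave an adjusted p of 0.0837 to 0.428. The Krt88 region 5.74 kb past the start differed by 0.51 (SE 0.205, limma adjusted p = 0.239). The Krt14 intron region differed by 0.50, with a 95% interval from -0.0022 to 0.996. It was 0.235 without the first library labelled nose, 0.767 without the second, and 0.298 without the first labelled mandibular process.

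The simple pair showed small differences between nose and both jaws. The Krt8 region at 20.1 kb differed by 0.07 (95% interval -0.29 to 0.43), its intronic region by 0.23 (-0.13 to 0.60) and the Krt18 start region by -0.01 (-0.42 to 0.40). Without the first library labelled nose the Krt8 intronic region differed by 0.114, and without the second by 0.364. The Krt10 exon region differed by -0.35 (-0.77 to 0.08). Of the 32 intervals, 31 lay within 1 log2 unit of 0 for nose minus both jaws and 28 for maxillary minus mandibular process.

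For maxillary minus mandibular process, the largest keratin difference was at the Krt8 region 16.1 kb past the start, -0.72 (SE 0.221, limma adjusted p = 0.139). It was -0.439 without the first library labelled maxillary process and -0.981 without the second. A Krt42 region 12.3 kb before the start, in an intron of the antisense gene Gm14206, differed by -0.60 (limma adjusted p = 0.160), with folds of 3.96 and 4.74 in maxillary process and 6.48 and 6.61 in mandibular process. The Krt18 region 2.85 kb before the start differed by 0.45 (limma adjusted p = 0.321). Of these, the Krt8 and Krt42 regions were the lower in both libraries labelled maxillary process, and the Krt18 region the higher, but none passed the threshold.

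**Figure D5:**
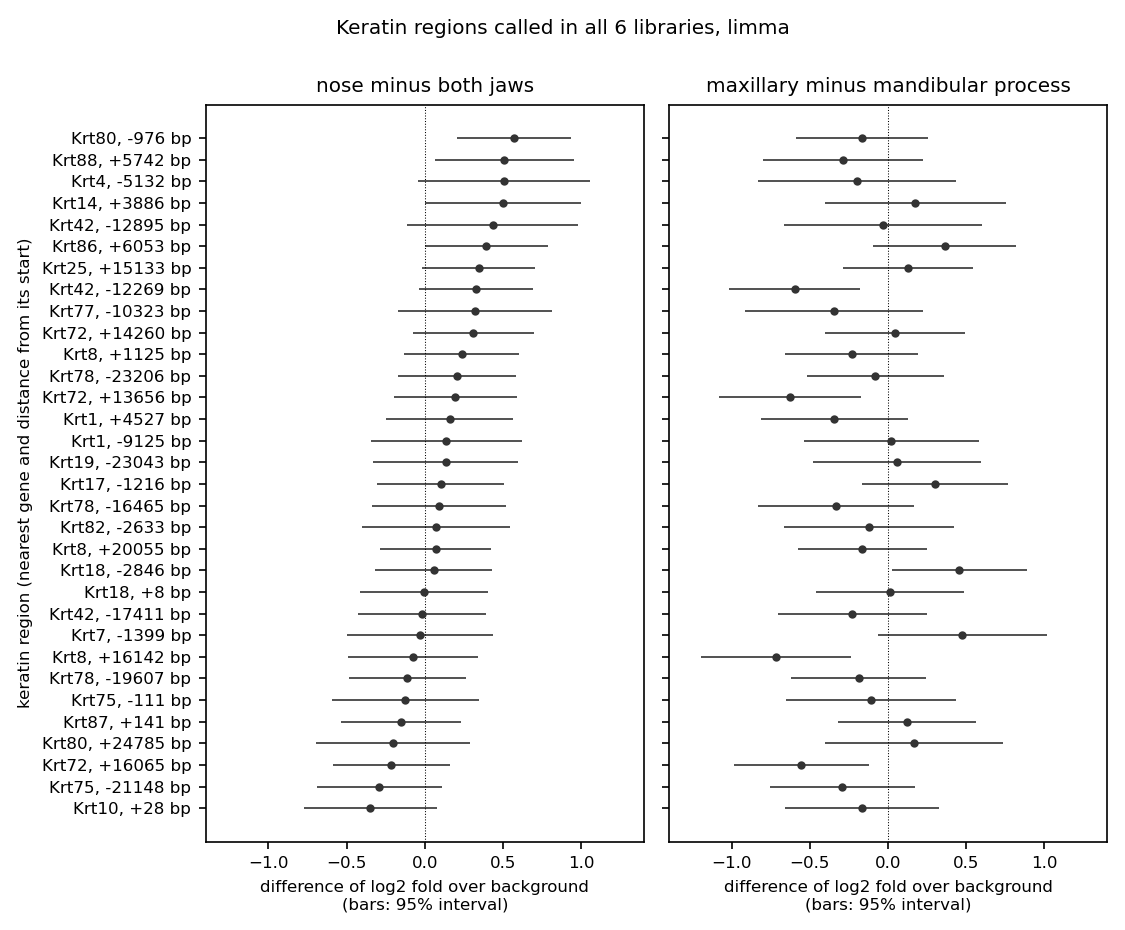
Difference of log2 fold over background (x axes, points) with its 95% interval (bars) from limma for the 32 keratin regions called in all 6 libraries, for nose minus both jaws and for maxillary minus mandibular process. For nose minus both jaws the points run from -0.35 at Krt10 to 0.57 at Krt80, and no region passed an adjusted p of 0.05 in either panel.

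Motifs of factors known from epithelium, and the general Sp/KLF box, were counted in the 201 bp around each strongest summit, on both strands. The AP-2 motif GCCNNNGGC was matched in 10.2% of keratin regions, against 6.40% of all regions, and the Sp/KLF box GGGCGG in 15.9%, against 7.58%. The AP-1 motif TGANTCA was matched in 8.28%, against 6.88%, the p53-family half-site in 8.92%, against 7.55%, and the Grainyhead-like motif AACNGGTT in 1.27%, against 1.62%. The keratin windows had a median GC content of 53.7%, against 47.3% over all regions. Genes whose products anchor or crosslink intermediate filaments, with other filament genes, were counted beside the keratins. Plec, Dsp, Dst, Evpl, Ppl, Jup, Pkp1, Pkp3, Des, Vim and Lmna, 11 of 11, had a promoter called in all 6 libraries, against 65.8% of all protein-coding genes.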

How the data were processed

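Libraries were grouped by their GEO labels. Bowtie2, SAMtools and mm10 stand in the submitters' processing notes; the peak caller is not given in the sources used here. For each library the authors deposited its own peak list, giving per summit a score, a ratio (fold of its height over local background), and its −log10 p and −log10 q. The lowest −log10 q was 1.30 in 4 lists, 1.62 in the first mandibular and 2.55 in the second maxillary list, so weak peaks were kept unevenly. The single-end reads of 50 bp were not analysed here, so the depth is unknown and presence of a peak was the main measure.

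Peaks were merged at 1 bp over the 6 lists, and regions were given to the gene (GENCODE M21 basic) whose start was nearest, within 50 kb, to the summit with the best rank. Limma 3.58.1 (R 4.3.3) was fitted without a replicate term to the deposited ratio, as log2 fold, of regions called in all 6 libraries. No pseudocount was needed. Other steps used Python 3.11.15 with pandas 2.3.3, numpy 2.4.6, matplotlib 3.10.9 and scipy 1.17.1, and limma was tested on simulated data. The p53-family half-site and the other motifs were searched as exact letters in GRCm38.

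Members, classes, marker lists, motifs and tests were chosen with earlier results of these data known. Genes named were the simple and basal keratins, other keratins with a promoter call in all 6 libraries, a limma call or a label-specific region, the 5 keratins with most regions and 10 with none, alphabetically; others were named after their values were seen. Alternatives were peaks of −log10 q of at least 3 or 5, lists cut to 219779 lines, cover of 50% or 200 bp, distances of 20 and 100 kb, promoters of 500 bp and 2 kb, other limma scales and region filters, a replicate block and each library left out.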

Additional observations from a re-analysis of the deposited data

How the results depend on the processing

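The count of keratin regions, 157, was 79 and 40 with peaks of −log10 q of at least 3 and 5, and 137 to 152 with 1 library left out. Keratin promoters called in all 6 libraries, 6, were 2 at either threshold, 4 with outermost starts (added after seeing the data) and 6 to 7 with 1 library left out. Label-specific regions for nose, 5, were 1 and 0 at these thresholds and 3 with lists of equal length (5 to 19 with 1 library left out). Those for maxillary process, 3, were 0, 0 and 1 (3 to 12), and those for mandibular process, 3, were 1 and 1 (3 to 24). The 2 regions of the jaws were 1 at both thresholds and 1 with the stricter cover (2 to 4). The highest count of each label came without a library of that label, when a call in the remaining 1 was enough. That of the jaws came without a maxillary library, when fewer jaw calls were needed. The cause of the other shifts, beyond the smaller number of peaks, was not tested.

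The keratin share in nose minus both jaws, -0.271 per 10000 regions, reversed to 0.472 and 0.613 at these thresholds and to 0.0143 with lists of equal length, and was -0.402 to -0.136 with 1 library left out. For maxillary minus mandibular process, -0.260, it was -0.769 at the threshold of 5 and -0.561 with the stricter cover, and -0.348 to -0.0993 with 1 library left out (-0.0993 without the first mandibular one).

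Limma called 0 keratin regions in each contrast under every alternative run, including the replicate block. Over all regions, nose minus both jaws gave 1504 calls, 2823 with median centring, 0 on −log10 q, 0 with regions of at least 4 libraries, and 0 without either nose or either maxillary library, and 356 and 407 without either mandibular one. Maxillary minus mandibular process gave 686 calls, 1683 with median centring, 0 on −log10 q, 0 with regions of at least 4 libraries and 0 without any 1 jaw library. Maxillary process minus nose gave 962 and mandibular process minus nose 1733, with 1902 and 3298 after median centring, 0 and 451 on −log10 q and 0 and 0 with regions of at least 4 libraries. Maxillary process minus nose gave 0 without either nose or either maxillary library, and mandibular process minus nose gave 0 without any 1 of the 6 libraries. The labels do not say whether libraries of the same replicate number were handled together. Replicate differences of the labels correlated at 0.0646 (nose and maxillary), 0.0311 (nose and mandibular) and 0.00702 (maxillary and mandibular) over 69940 regions. The replicate block gave 1950 calls for nose minus both jaws and 1127 for maxillary minus mandibular process, with 0 keratin calls.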

Other observations

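The keratin-associated protein genes (Krtap), which encode matrix proteins of hair and were left out of the family, numbered 57. A promoter was called in all 6 libraries for 1 of them, against 65.8% of all protein-coding genes, and in no library for 45, against 26.5% of all genes. They had 175 regions, of which 15 were called in all 6 libraries (8.57%), against 18.3% of all regions. Per 10000 called regions, Krtap regions came to 3.39 and 3.50 in nose, 3.37 and 4.30 in maxillary process, and 4.14 and 4.17 in mandibular process.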
